A study of Mus musculus with 81 samples.

Results

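The Cyp2c genes described here encode 9 cytochrome P450 enzymes of mouse liver and gut: Cyp2c29, Cyp2c37, Cyp2c38, Cyp2c39, Cyp2c50, Cyp2c54, Cyp2c55, Cyp2c65 and Cyp2c70. They were taken by gene symbol, with the probe set of highest mean per symbol, out of 21765 genes measured on Affymetrix arrays. Each of the 9 had 1 probe set. Liver RNA came from male mice of the BXD family, inbred lines bred from crosses between C57BL/6J and DBA/2J, and from these parents. The 41 chow arrays held livers of mice fed Harlan 2018 chow for life, and the 40 high-fat arrays those of mice moved at 8 weeks of age to the Harlan 06414 high fat diet. All mice were 29 weeks old, male, fasted overnight and perfused, and the labels name no engineered allele or drug. Each array carried a pool of RNA from about 5 mice of the same strain on the same diet, so every value is a pool's and p-values measure the spread between pools, not between animals. Both diets were measured in 39 of 42 strains (37 BXD strains and both parents), which gave 78 paired arrays. How the diet shifts these genes across strains, and how far strains differ, are the questions the design puts.

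Cytochromes P450 of the CYP2C group sit in the endoplasmic reticulum, take electrons from P450 oxidoreductase (Por) and oxidise drugs, steroids, retinoids and fatty acids such as arachidonic acid, from which they make epoxides and hydroxy acids. In liver many of them depend on HNF4-alpha and induced through the nuclear receptors CAR (Nr1i3) and PXR (Nr1i2), and several are strongest in hepatocytes around the central vein. Mouse Cyp2c genes lie side by side on chromosome 19 and arose by duplication, so their transcripts are much alike, probes can be shared between relatives and the value of a single member is uncertain.

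The sequences just upstream of the transcription starts show how far these duplicates resemble each other. They are printed for the genes whose diet or strain differences are described most closely. They are the 250 bases before each start in the RefSeq table (GRCm38.p6), 5′ to 3′ on the gene's strand. Of the 9 genes 8 had an entry, and Cyp2c54 is named only. Capitals mark 3 motifs searched on both strands: TATAAA (the core of a TATA box), AGGTCA (a nuclear receptor half-site) and CAAAGTCC (an HNF4-type element).
Cyp2c29 (chr19:39286835-39287084, plus strand): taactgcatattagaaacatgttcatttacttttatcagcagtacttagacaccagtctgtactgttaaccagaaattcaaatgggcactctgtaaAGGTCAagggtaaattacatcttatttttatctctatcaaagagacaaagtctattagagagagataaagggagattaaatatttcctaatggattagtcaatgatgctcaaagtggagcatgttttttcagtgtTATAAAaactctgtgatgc
Cyp2c37 (chr19:39992174-39992423, plus strand): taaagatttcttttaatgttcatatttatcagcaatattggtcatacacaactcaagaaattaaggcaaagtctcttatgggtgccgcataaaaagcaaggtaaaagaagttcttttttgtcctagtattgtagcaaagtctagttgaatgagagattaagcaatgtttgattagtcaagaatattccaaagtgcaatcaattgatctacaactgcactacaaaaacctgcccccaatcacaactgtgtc
Cyp2c50 (chr19:40089429-40089678, plus strand): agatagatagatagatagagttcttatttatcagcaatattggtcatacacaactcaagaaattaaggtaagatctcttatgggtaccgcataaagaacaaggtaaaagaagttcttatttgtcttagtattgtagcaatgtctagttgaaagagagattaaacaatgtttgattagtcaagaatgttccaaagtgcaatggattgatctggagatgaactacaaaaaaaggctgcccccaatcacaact
Cyp2c38 (chr19:39463076-39463325, minus strand): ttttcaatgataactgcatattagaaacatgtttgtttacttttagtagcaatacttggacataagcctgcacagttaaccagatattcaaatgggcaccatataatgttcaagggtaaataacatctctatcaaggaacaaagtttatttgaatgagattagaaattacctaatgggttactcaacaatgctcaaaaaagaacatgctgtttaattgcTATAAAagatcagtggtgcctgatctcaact
Cyp2c39 first start (chr19:39347096-39347345, plus strand): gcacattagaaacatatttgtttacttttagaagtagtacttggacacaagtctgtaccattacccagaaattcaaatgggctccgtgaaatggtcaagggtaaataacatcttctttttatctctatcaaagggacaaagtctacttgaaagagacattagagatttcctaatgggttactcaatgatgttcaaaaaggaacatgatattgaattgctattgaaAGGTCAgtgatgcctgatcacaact
Cyp2c39 second start (chr19:39510572-39510821, plus strand): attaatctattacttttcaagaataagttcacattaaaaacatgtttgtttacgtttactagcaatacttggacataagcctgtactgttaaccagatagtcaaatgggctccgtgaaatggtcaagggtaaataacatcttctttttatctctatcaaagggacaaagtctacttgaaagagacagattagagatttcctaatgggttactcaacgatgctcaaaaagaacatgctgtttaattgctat
Cyp2c55 (chr19:39006769-39007018, plus strand): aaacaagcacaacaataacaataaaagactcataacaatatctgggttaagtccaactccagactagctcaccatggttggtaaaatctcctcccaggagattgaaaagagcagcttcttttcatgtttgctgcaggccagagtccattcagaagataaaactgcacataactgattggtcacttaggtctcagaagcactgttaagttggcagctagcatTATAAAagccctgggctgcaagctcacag
Cyp2c70 (chr19:40187287-40187536, minus strand): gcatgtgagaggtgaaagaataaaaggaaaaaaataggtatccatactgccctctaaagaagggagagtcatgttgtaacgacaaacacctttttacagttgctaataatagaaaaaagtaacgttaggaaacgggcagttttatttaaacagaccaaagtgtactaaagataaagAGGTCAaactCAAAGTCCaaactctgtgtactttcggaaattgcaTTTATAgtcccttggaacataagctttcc
The window of Cyp2c37 was 84.3% identical to that of Cyp2c50 over 255 aligned positions. The window at the first start of Cyp2c39 was 75.8% identical to that of Cyp2c38 and 74.1% to that of Cyp2c29. For its second start these values were 71.0% and 68.1%. Other windows were less alike. Against the other windows printed, that of Cyp2c70 was 46.7% to 49.2% identical and that of Cyp2c55 46.4% to 52.2%. TATAAA stood in the windows of 5 of the 8 genes with an entry (Cyp2c29, Cyp2c38, Cyp2c55, Cyp2c65 and Cyp2c70). It also stood in 12.4% of all 32851 windows in the table. AGGTCA stood in 3 (Cyp2c29, Cyp2c39 and Cyp2c70) and in 14.0% of all windows, and CAAAGTCC in 2 (Cyp2c65 and Cyp2c70) and in 1.20%. No 2 marked motifs overlap in the windows printed. In Cyp2c70 the TATAAA match is on the opposite strand. A match is a description of these letters only. The RefSeq record of Cyp2c39 runs across that of Cyp2c38 on the other strand and has 2 starts, so which transcripts the Cyp2c39 probe set reads is uncertain.

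Values are deposited scores: on every array the 35556 probe sets average 8 with an SD of 2, and the base of the underlying log scale is not stated. Differences are therefore in score units, without fold changes, and levels are compared within a gene only. The median of 5222 negative-control probe sets was 6.69, and their 90th percentile was 8.75. Hepatocyte markers fit the liver label, with the mean of 10 of them between 14.8 and 15.0 on all arrays of both diets. Pancreatic acinar markers stood out on the DBA/2J chow and BXD63 high-fat arrays, where 14 of 17 exceeded every other array. BXD61 on chow had the highest mean of 10 Kupffer cell markers, 10.8 against a chow median of 9.69, and of 8 cholangiocyte markers, 8.64 against 7.93. Over all genes, the diet differences of BXD61, BXD44 and BXD63 were least like the mean of the other strains. Their Pearson r with that mean was 0.007, 0.152 and 0.224. Results of the 9 genes that rest on these strains are given with and without them. The strains were picked by their diet differences in these same data, so values without them show dependence on them only. Smaller p-values without them are not independent support. In whole liver, fewer cells of a type and less RNA per cell cannot be told apart.

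**Figure D1:**
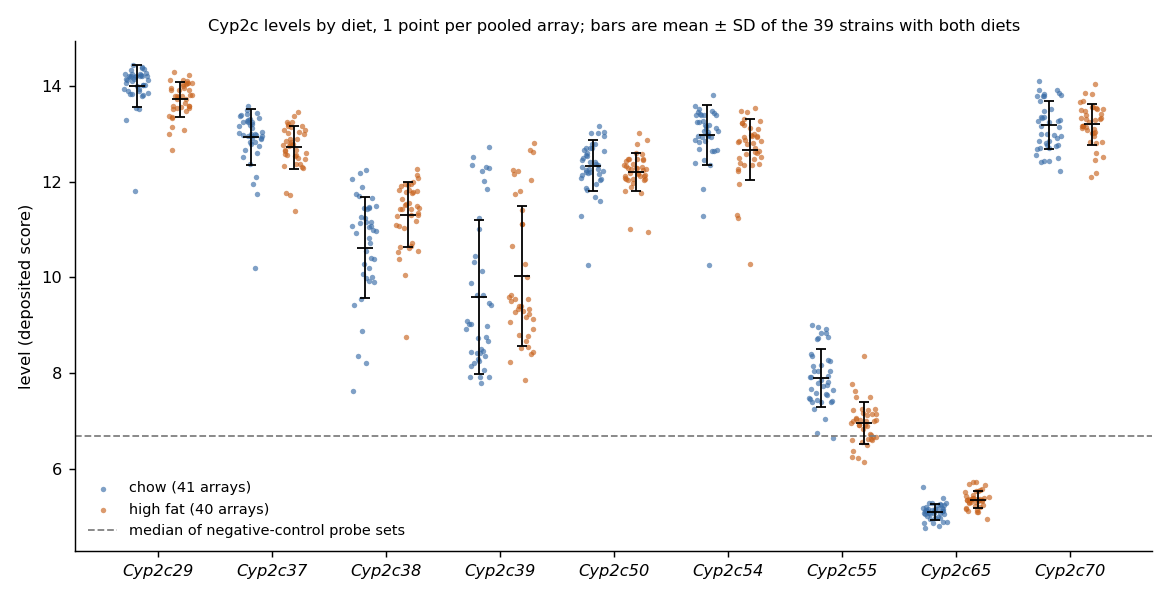
Level of each Cyp2c gene (y axis, deposited score) on 41 chow arrays (blue) and 40 high-fat arrays (orange), 1 point per pooled array, with the mean ± SD of the 39 strains with both diets in black and the negative-control median as a dashed line. The diet ranges overlapped for all 9 genes, Cyp2c39 spread widest, and Cyp2c65 lay below the dashed line on every array.

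On the high-fat diet 3 of the 9 genes were higher (Cyp2c38, Cyp2c39 and Cyp2c65), 4 were lower (Cyp2c29, Cyp2c37, Cyp2c54 and Cyp2c55) and 2 did not pass the test (Cyp2c50 and Cyp2c70). The test was limma with strain as a block and Benjamini-Hochberg adjustment over all genes, at an adjusted p of 0.05. Of all 21765 genes 53.7% passed, 27.7% higher and 26.1% lower, so passing alone does not set a gene apart. The median difference of the 9 was -0.13 units, beside 0.00 over all genes. Differences of at least 0.5 units were rare, 0.744% of all genes, and Cyp2c38 and Cyp2c55 were the 2 members among them. Negative-control probe sets differed between diets by up to 0.641 units, with 95% of them within 0.296, and Cyp2c38 and Cyp2c55 were the members beyond that largest value. For Cyp2c38 this rested on BXD51, without which its difference was 0.607, and it was 0.637 without the strain block on all arrays. The differences of Cyp2c29, Cyp2c37 and Cyp2c65 passed the test but lay within 0.296. Many genes of the other lists named below also lay within 0.296, among them Nr1i2, Hnf4a, Gstm1, Ephx1, Glul and Cyp7a1.

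Cyp2c29, a CAR-inducible enzyme that forms epoxides from arachidonic acid in mouse, was lower on high fat. On chow its level ran from 11.8 in BXD61 and 13.3 in BXD44 over a median of 14.1 to 14.4 in BXD87. On high fat it ran from 12.7 in BXD81 over a median of 13.8 to 14.3 in BXD63. The ranges overlapped, but 31 of 39 strains were lower on high fat, and the mean went from 14.0 ± 0.44 to 13.7 ± 0.36 (SD, n = 39 strains). The difference was -0.28 ± 0.08 units (SE; limma, adjusted p = 0.00322). BXD95 and BXD101 showed the largest decreases, -1.21 and -1.11, and BXD61 went the other way by 1.98. Without BXD44, BXD61 and BXD63 the difference was -0.39 (limma, adjusted p = 3.16e-07). Each of these strains was higher on high fat for Cyp2c29, Cyp2c37, Cyp2c50 and Cyp2c54. Leaving them out therefore had to enlarge the decreases of these genes, and the p-values without them are not independent support.

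Cyp2c37 and Cyp2c54, arachidonic acid metabolisers of pericentral hepatocytes in mouse, were also lower. Cyp2c37 ran on chow from 10.2 in BXD61 over a median of 13.0 to 13.6 in BXD84, and on high fat from 11.4 in BXD98 over 12.8 to 13.4 in BXD90. It was lower on high fat in 32 of 39 strains, from 12.9 ± 0.58 to 12.7 ± 0.45, by -0.21 ± 0.09 units (limma, adjusted p = 0.0435). This call was close to the threshold. It was lost when any 1 of 19 strains was left out: BXD45, BXD48, BXD49, BXD55, BXD56, BXD64, BXD65, BXD71, BXD75, BXD79, BXD84, BXD85, BXD87, BXD95, BXD96, BXD98, BXD99, BXD100 or BXD101. The differences were then -0.21 to -0.17 (limma, adjusted p = 0.0502 to 0.0813, the last without BXD98). Without BXD44, BXD61 and BXD63 it was -0.33 (limma, adjusted p = 7.64e-06). For Cyp2c54 the chow range was 10.3 in BXD61 to 13.8 in BXD90 around a median of 13.0, and the high-fat range 10.3 in BXD98 to 13.5 in BXD90 around 12.8. It was lower in 34 of 39 strains, from 13.0 ± 0.63 to 12.7 ± 0.64, by -0.30 ± 0.12 (limma, adjusted p = 0.0301). The call was lost without BXD98 (-0.24, limma adjusted p = 0.0555), and without BXD44, BXD61 and BXD63 the difference was -0.46 (limma, adjusted p = 1.41e-05). The lowest arrays of these genes belonged to a few strains, one of them on chow (BXD61) and one on high fat (BXD98).

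Cyp2c50, a neighbour of Cyp2c54 with an upstream window close to that of Cyp2c37, did not pass. Its chow levels ran from 10.3 in BXD61 and 11.3 in BXD44 over a median of 12.3 to 13.2 in BXD95, and its high-fat levels from 11.0 in BXD81 over 12.3 to 13.0 in BXD90. The mean was 12.3 ± 0.53 on chow and 12.2 ± 0.39 on high fat, a difference of -0.13 ± 0.09 units, with 25 of 39 strains lower (limma, adjusted p = 0.224). BXD61 was higher on high fat by 2.16 and BXD44 by 1.01, while BXD98 differed by -1.94, so single strains moved in opposite directions by more than the mean. Without BXD61 alone it passed (-0.19, limma adjusted p = 0.0200), and without BXD44, BXD61 and BXD63 the difference was -0.23 (limma, adjusted p = 0.00250). The raised Kupffer and cholangiocyte marker means of BXD61 on chow stand beside its low values for these 4 genes, and their part in the result was not tested.

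Cyp2c55, a PXR- and CAR-inducible enzyme best known from mouse colon that hydroxylates arachidonic acid, had the largest difference of the 9. Chow levels ran from 6.65 in BXD43 over a median of 7.85 to 9.02 in BXD97, and high-fat levels from 6.14 in BXD95 over 6.98 to 8.37 in BXD63. Every high-fat array but that of BXD63 lay under the chow median, 36 of 39 strains were lower, and the mean went from 7.91 ± 0.61 to 6.96 ± 0.44. The difference was -0.95 ± 0.12 units (limma, adjusted p = 4.41e-09). BXD68, BXD69 and BXD95 differed by -2.69, -2.27 and -2.23, from chow levels of 8.94, 8.77 and 8.37, and the exceptions that were higher were BXD63 by 0.943, BXD61 by 0.729 and BXD44 by 0.247. On high fat 12 of 40 arrays lay below the negative-control median, against 1 of 41 on chow. Above the 90th percentile of negative controls, 8.75, lay 6 of 41 chow arrays and 0 of 40 high-fat arrays, so the high-fat levels and most chow levels lay within the range of negative controls.

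Cyp2c65, another enzyme best known from mouse intestine, ran from 4.78 in BXD101 over 5.13 to 5.63 in BXD81 on chow and from 4.97 in BXD95 over 5.37 to 5.74 in BXD55 on high fat. All 81 arrays lay below the negative-control median, and the gene's transcript was not detectable above that level. The probe set was higher by 0.25 ± 0.04 units in 32 of 39 strains (limma, adjusted p = 5.74e-07), from 5.12 ± 0.17 to 5.37 ± 0.18, which is within the range that 95% of negative controls spanned. The diet test called 3 of 11 intestinal epithelium markers higher and 3 lower, beside 27.7% higher and 26.1% lower of all genes. The mean level of these markers spanned 7.63 to 7.98 on chow and 7.69 to 7.98 on high fat.

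Cyp2c38, a close relative of Cyp2c29 and Cyp2c39, rose the most. Chow levels ran from 7.62 in DBA/2J and 8.22 in BXD43 over a median of 11.0 to 12.3 in BXD92a, and high-fat levels from 8.75 in DBA/2J over 11.4 to 12.3 in BXD51. The high-fat arrays were higher in 34 of 39 strains, from 10.6 ± 1.06 to 11.3 ± 0.68, by 0.69 ± 0.12 units (limma, adjusted p = 3.19e-06). The gain was unequal: BXD51 went from 8.36 to 12.3, a difference of 3.90, and BXD43 from 8.22 to 10.7, a difference of 2.43. Above the 90th percentile of negative controls, 8.75, lay 38 of 41 chow arrays and 39 of 40 high-fat arrays. The chow arrays of BXD51, BXD43 and DBA/2J lay under it, so the gains of BXD51 and BXD43 started within the range of negative controls. BXD44 differed by -0.54, and BXD96, already at 12.2 on chow, differed by -0.04.

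Cyp2c39, which in mouse liver hydroxylates all-trans retinoic acid, was higher as well. Its chow levels ran from 7.80 in BXD71 over a median of 9.02 to 12.7 in BXD96, and its high-fat levels from 7.87 in BXD63 over 9.46 to 12.8 in BXD69. Strains differed far more than diets did, and 28 of 39 were higher on high fat, from 9.60 ± 1.61 to 10.0 ± 1.46. The paired difference was 0.43 ± 0.09 units (limma, adjusted p = 7.92e-05), led by BXD71 at 2.21 and BXD51 at 1.49. Without the strain block the same difference did not pass on the 78 paired arrays (limma, adjusted p = 0.297). BXD71, lowest of all on chow at 7.80, was 10.0 on high fat. Above the 90th percentile of negative controls, 8.75, lay 24 of 41 chow arrays and 33 of 40 high-fat arrays, so the lower levels lay within the range of negative controls.

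Cyp2c70, the enzyme that makes muricholic acids in mouse liver, did not pass the diet test. Chow levels ran from 12.2 in BXD80 over a median of 13.1 to 14.1 in DBA/2J, and high-fat levels from 12.1 in BXD44 over 13.2 to 14.0 in DBA/2J. Means were 13.2 ± 0.50 and 13.2 ± 0.43, with 20 strains higher and 19 lower, and the difference was 0.03 ± 0.07 units (limma, adjusted p = 0.776). Single strains moved both ways, from -1.01 in BXD101 to 0.983 in BXD85.

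**Figure D2:**
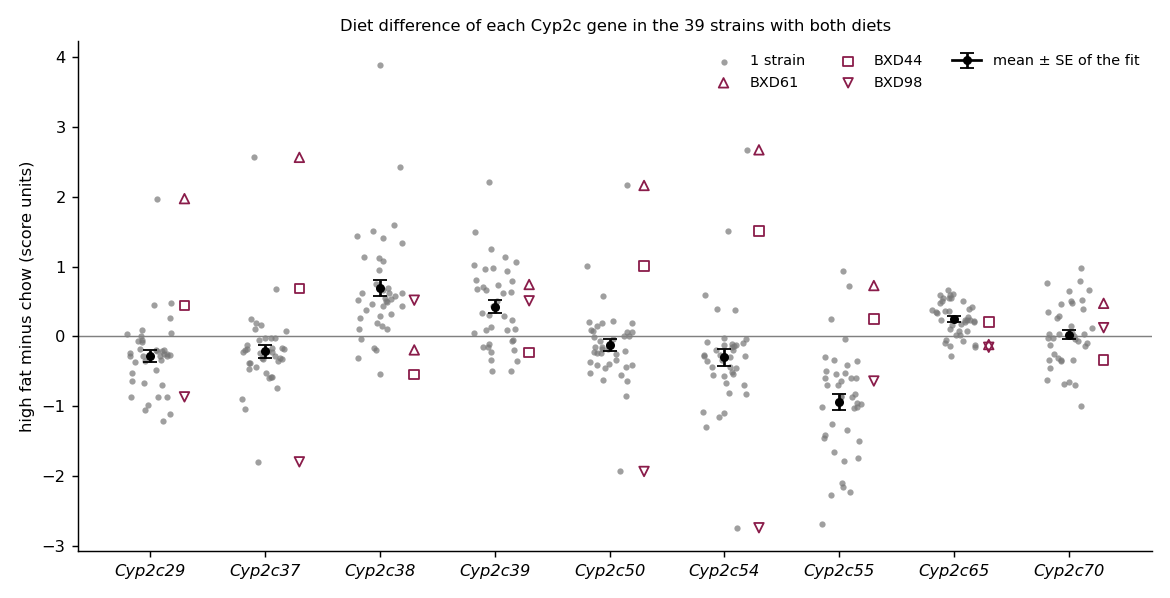
Difference between high fat and chow (y axis, score units) of each Cyp2c gene, 1 grey point per strain with both diets, with the mean ± SE of the fit in black and the values of BXD61, BXD44 and BXD98 drawn again to the right. BXD61 lies at 1.98 for Cyp2c29 and 2.68 for Cyp2c54, against means of -0.28 and -0.30, while BXD98 lies at -2.74 for Cyp2c54.

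The other 5 Cyp2c genes of the arrays gave 4 lower, 0 higher and 1 not passing. Cyp2c40, Cyp2c67, Cyp2c68 and Cyp2c66 differed by -0.30 ± 0.06, -0.25 ± 0.07, -0.33 ± 0.10 and -0.13 ± 0.05 units (limma, adjusted p = 2.44e-05, 0.00367, 0.00711 and 0.0199). Cyp2c66 lay close to the negative-control median, at 7.01 on chow and 6.88 on high fat. Cyp2c44, now called Cyp2c23, an epoxygenase, differed by -0.15 ± 0.07 (limma, adjusted p = 0.0618). Over all 14 Cyp2c genes 8 were lower and 3 higher, beside 26.1% lower and 27.7% higher of all genes.

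Among 18 electron partners and regulators of P450 genes 4 were higher, 4 lower and 10 did not pass. Of all genes 27.7% were higher and 26.1% lower. The PXR gene Nr1i2 was lower by -0.20 ± 0.03, the HNF4-alpha gene Hnf4a by -0.115 ± 0.03, the nuclear receptor Rora by -0.24 ± 0.02 and the heme-binding Pgrmc1 by -0.13 ± 0.02 units. The CAR gene Nr1i3 (0.08 ± 0.08; limma, adjusted p = 0.387) and Por (-0.19 ± 0.09; limma, adjusted p = 0.0640) did not pass; both are named for their place in the pathway, after their values were seen. Of 21 other CAR or PXR targets 11 were lower, 5 higher and 5 did not pass. Cyp3a11 differed by -0.83 ± 0.10, the glutathione transferase Gstm1 by -0.22 ± 0.03 and the glucuronosyltransferase Ugt1a9 by -0.19 ± 0.03, whereas the reductase Akr1b7 and the sulfate donor enzyme Papss2 rose by 0.22 ± 0.04 and 0.14 ± 0.04. Akr1b7 lay near the negative-control median, at 6.48 on chow and 6.70 on high fat.

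In the list of enzymes that release or turn over arachidonic acid and its epoxides, 7 of 19 genes were lower and 2 higher. The shares of all genes were 26.1% lower and 27.7% higher. The epoxide hydrolase Ephx1 was lower by -0.26 ± 0.04, the P450 relatives Cyp2j9 and Cyp2j11 by -0.50 ± 0.06 and -0.18 ± 0.03 and the lipoxygenase Alox5 by -0.25 ± 0.03. Cyp2j11 lay below the negative-control median on both diets (5.82 on chow and 5.64 on high fat), and Alox5 on high fat (6.59). The phospholipase Pla2g4a and the cyclooxygenase Ptgs1 were higher by 0.23 ± 0.05 and 0.13 ± 0.04. Of 15 retinoid genes 4 were higher and 5 lower, among them Rdh16, a retinol dehydrogenase (0.22 ± 0.04), Bcmo1, the carotene-cleaving enzyme (0.15 ± 0.03), the carrier Rbp4 (-0.09 ± 0.02) and Aldh1a2, a retinal dehydrogenase with a level of 6.11 on high fat, below the negative-control median (-0.40 ± 0.03). Of 14 bile acid synthesis genes, the context of Cyp2c70, 3 were higher and 2 lower: Cyp7a1, the rate-limiting enzyme, rose by 0.27 ± 0.08, Hsd3b7 by 0.14 ± 0.03 and Akr1c6 by 0.10 ± 0.04, while Cyp27a1 and Cyp7b1 differed by -0.14 ± 0.03 and -0.23 ± 0.09. Each of these genes passed the limma test over all genes at an adjusted p of 0.05.

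Most pericentral marker genes were higher on high fat, while Cyp2c29, Cyp2c37 and Cyp2c54 were lower. Of 16 genes of that zone 13 were higher, 1 lower and 2 did not pass, beside 27.7% higher and 26.1% lower of all genes. Glul, the glutamine synthetase of the cells next to the central vein, rose by 0.24 ± 0.03, the R-spondin receptor Lgr5 by 0.37 ± 0.04, Lect2 by 0.34 ± 0.04 and the ammonia transporter Rhbg by 0.37 ± 0.05 units. The exception was Cyp1a2, at -0.34 ± 0.10, another P450. Cyp2e1, also a P450 of this list, did not pass (0.03 ± 0.02, limma adjusted p = 0.140) and is named after its value was seen. Of 16 periportal genes 7 were lower and 1 higher, with G6pc at -0.49 ± 0.05, Sox9 at -0.28 ± 0.04, Cdh1 at -0.42 ± 0.06 and Aldh1b1 at 0.44 ± 0.07. Each of these named genes except Cyp2e1 passed the limma test over all genes. Counts of the other cell type lists were 9 of 10 Kupffer markers higher and 0 lower, 3 of 8 cholangiocyte markers higher and 3 lower, 3 of 17 acinar markers higher and 4 lower, and 1 of 10 hepatocyte markers higher and 2 lower. The part of these markers in the Cyp2c differences was not tested.

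Strains differed in 4 of the 9 genes by limma's moderated F-test with diet as a covariate, and 22.3% of all genes passed that test. Cyp2c39 stood out, with 92.4% of the variance around the diet means lying between strains (limma, adjusted p = 1.07e-18), a share that only 0.156% of all genes reached. Cyp2c38 had 60.8% (limma, adjusted p = 1.93e-05), Cyp2c70 50.6% (limma, adjusted p = 0.000741) and Cyp2c37 31.6% (limma, adjusted p = 0.0299), beside a median of 19.6% over all genes. Cyp2c50 (22.1%), Cyp2c54 (20.0%), Cyp2c29 (7.91%), Cyp2c55 (-9.83%) and Cyp2c65 (-5.82%) did not pass, a negative share meaning that 2 arrays of a strain were less alike than arrays of different strains. Without BXD44, BXD61 and BXD63 the shares of Cyp2c37, Cyp2c50 and Cyp2c54 were 59.2%, 44.9% and 44.8%, and Cyp2c50 and Cyp2c54 passed too (limma, adjusted p = 0.00383 and 0.00332). These 3 strains moved the shares of the pericentral P450 genes more than the other alternatives tried did.

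For Cyp2c39 the mean of both diets ran from 7.90 in BXD63 over a median of 9.15 to 12.7 in BXD69. The widest step between neighbouring strains, 0.968 units from DBA/2J to BXD43, left 26 strains below and 13 above it, and was 20.3% of the range. The 13 higher strains were BXD43, BXD45, BXD48, BXD55, BXD56, BXD68, BXD69, BXD75, BXD84, BXD85, BXD87, BXD96 and BXD100, named here after their values were seen. The step was under the 25% of the range set for naming strains. On chow the lowest of the 13 was at 10.1 and the highest of the other 26 at 9.64. On high fat these values were 10.7 and 10.3, so the 2 sides did not overlap on either diet. As the sides were cut from the mean of these same values, this separation is no independent support for 2 groups. Neither parent lay on the higher side: C57BL/6J was at 8.23 on chow and 9.17 on high fat, and DBA/2J at 9.03 and 10.3.

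**Figure D3:**
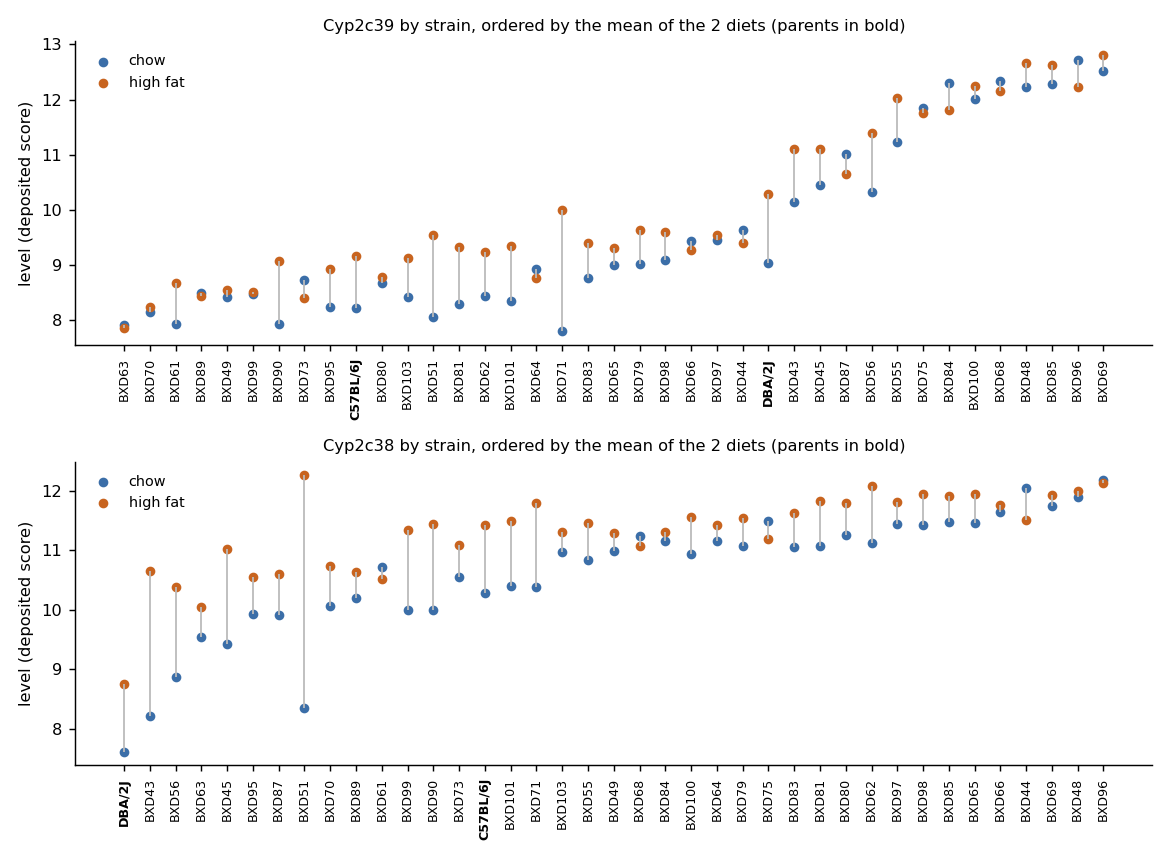
Levels (y axis, deposited score) of Cyp2c39 (top) and Cyp2c38 (bottom) in the 39 strains with both diets, ordered by the mean of chow (blue) and high fat (orange), with a grey line joining the diets and parents in bold. For Cyp2c39 the 13 strains on the right lie above both parents on both diets, and for Cyp2c38 DBA/2J is lowest on both diets while BXD51 spans 8.36 to 12.3.

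Cyp2c38 had its widest step at the bottom, where DBA/2J at 8.19 (mean of both diets) lay 1.25 units below BXD43 at 9.44, a step of 31.5% of the range up to BXD96 at 12.2. Cyp2c29 had BXD61 at 12.8 and BXD81 at 13.1 below a step of 28.3% of the range, with BXD44 next at 13.5 and BXD85 highest at 14.2. For Cyp2c37 and Cyp2c54 BXD61 was lowest (11.5 and 11.6) and BXD90 highest (13.5 and 13.7), and for Cyp2c50 BXD81 was lowest at 11.3 and BXD90 highest at 13.0. The low strains of these 4 genes overlapped, although BXD61 was low on chow only, where it was 10.2 to 11.8, and stood at 12.4 to 13.8 on high fat. Cyp2c55 was lowest in BXD43 (6.44) and highest in BXD66 (8.23), and Cyp2c65 lowest in BXD44 (5.01) and highest in BXD81 (5.60). Cyp2c70 was lowest in BXD80 at 12.2 and highest in DBA/2J at 14.1, above every BXD strain on both diets.

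Between the parents 1 of the 9 genes passed, against 2.39% of all genes. The SE and p of each parental contrast (limma) take the spread from all 39 strains, as each parent had 1 pool per diet. Cyp2c38 was higher in C57BL/6J, at 10.3 on chow and 11.4 on high fat, than in DBA/2J, at 7.62 and 8.75, by 2.67 ± 0.52 units (SE; limma contrast on 2 arrays of each parent, adjusted p = 0.000800). Both DBA/2J levels lay under the 90th percentile of negative controls. The DBA/2J chow array is one of those with acinar transcripts, and without it the difference was 2.45 (limma, adjusted p = 0.0372). Cyp2c39 (-0.96 ± 0.39; limma, adjusted p = 0.247) and Cyp2c70 (-0.60 ± 0.31; limma, adjusted p = 0.394) did not pass, and the other 6 lay between -0.30 and 0.515 units. Among the other Cyp2c genes Cyp2c44 and Cyp2c68 were higher in C57BL/6J by 1.82 ± 0.30 and 1.82 ± 0.46 (limma, adjusted p = 7.13e-05 and 0.0154). BXD strains often lay outside the parents' range, also for genes that did not pass the strain test. By the mean of both diets, 28 of 37 were above both parents and 9 below for Cyp2c54, and 19 and 15 for Cyp2c55. Such counts therefore do not set a gene apart, and their share over all genes was not computed. For Cyp2c39 13 of 37 were above both parents and 9 below, for Cyp2c38 24 were above and 0 below, and for Cyp2c70 0 were above and 27 below, all by the mean of both diets. For Cyp2c70 the count below both parents was 32 on chow and 14 on high fat, each set against 1 array per parent.

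The spread between strains differed between diets in 0 of the 9 genes by limma on absolute deviations from the diet median, where 0.00919% of all genes passed. At an unadjusted p of 0.05, 3 of the 9 and 1148 of all 21765 genes were past the threshold. As no member passed after adjustment, the unadjusted count is no result about these 9 genes. Cyp2c38 had a mean absolute deviation of 0.787 on chow and 0.486 on high fat, a difference of -0.30 ± 0.08 units (limma, adjusted p = 0.437, unadjusted p = 0.000722). Cyp2c55 (-0.15 ± 0.07) and Cyp2c70 (-0.10 ± 0.05) were the others, at adjusted p of 0.920 for both by limma.

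Over the 39 strain means, diet centred, 7 of 36 pairs of these genes were correlated (two-sided permutation test with 100000 draws, Benjamini-Hochberg over the 36 pairs). The 6 positive pairs were those among Cyp2c29, Cyp2c37, Cyp2c50 and Cyp2c54, and the 1 negative pair was Cyp2c38 with Cyp2c70. Cyp2c37 and Cyp2c54 were closest, with r = 0.86 and Spearman's rho = 0.77 (permutation test, adjusted p = 6e-05, which rests on the smallest p that the draws can give, 1e-05), and r was 0.81 without BXD61 and BXD81, the 2 strains farthest from the median. The same values were 0.82, 0.77 and 0.74 for Cyp2c50 with Cyp2c54 and 0.80, 0.71 and 0.67 for Cyp2c37 with Cyp2c50, each at the same adjusted p. Cyp2c29 followed Cyp2c54 with r = 0.71 and rho = 0.60, and r = 0.55 without those 2 strains. Its relations to Cyp2c37 (r = 0.67, rho = 0.40, adjusted permutation p of rho 0.0674) and to Cyp2c50 (r = 0.56, rho = 0.28, adjusted permutation p of rho 0.275) dropped to r = 0.34 and r = 0.22 without BXD61 and BXD81, and so rest on these strains. Without BXD44, BXD61 and BXD63 Cyp2c29 with Cyp2c50 was at r = 0.40 (permutation test, adjusted p = 0.0817), and the other 6 pairs still passed. Relatives may share probes, and the part of that in these correlations was not tested.

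**Figure D4:**
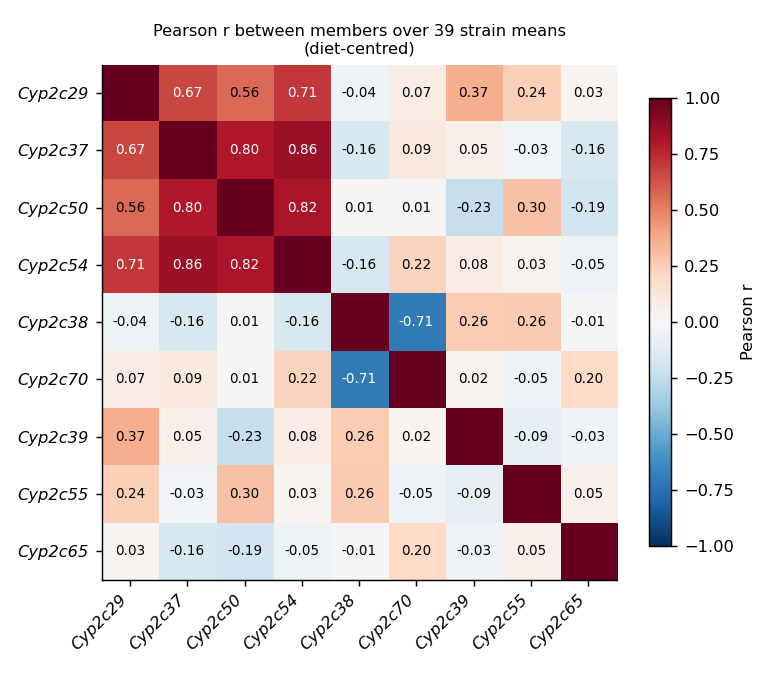
Pearson r between the Cyp2c genes over the 39 strain means of diet-centred values, printed in each cell and coloured from blue (negative) to red (positive). The block of Cyp2c29, Cyp2c37, Cyp2c50 and Cyp2c54 at the top left holds values of 0.56 to 0.86, and the cell of Cyp2c38 with Cyp2c70 holds -0.71.

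Cyp2c38 and Cyp2c70 moved against each other, with r = -0.71 and rho = -0.72 over 39 strains (permutation test, adjusted p = 6e-05) and r = -0.72 without DBA/2J and BXD43. DBA/2J had the lowest Cyp2c38 (8.19) and the highest Cyp2c70 (14.1) of all strains. BXD96, highest for Cyp2c38 at 12.2, had a Cyp2c70 mean of 12.8, and BXD80, lowest for Cyp2c70 at 12.2, a Cyp2c38 mean of 11.5. Cyp2c39, Cyp2c55 and Cyp2c65 took part in no pair that passed by Pearson r over strain means, with r between -0.23 and 0.37. By rank, Cyp2c38 with Cyp2c39 passed narrowly (rho = 0.42; permutation test, adjusted p = 0.0484, or 0.103 without BXD44, BXD61 and BXD63). Cyp2c39 with Cyp2c50 did not pass by rank (rho = -0.38, permutation test, adjusted p = 0.0801). Without those strains, a choice made after seeing the data, that pair did pass (rho = -0.48, permutation test, adjusted p = 0.0206). With all paired arrays in place of strain means 3 more pairs passed by r (permutation test): Cyp2c29 with Cyp2c55 at 0.49, Cyp2c50 with Cyp2c55 at 0.36 and Cyp2c38 with Cyp2c39 at 0.28 (adjusted p = 4.5e-05, 0.00476 and 0.0432), where the 2 arrays of a strain are not independent.

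**Figure D5:**
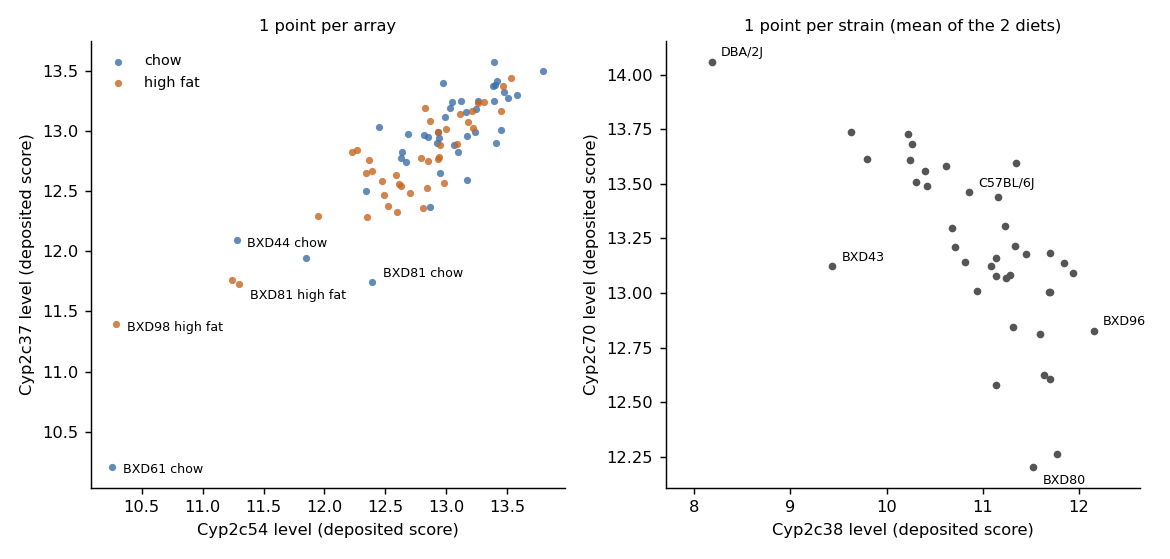
Left, Cyp2c37 level against Cyp2c54 level (deposited scores) with 1 point per array on chow (blue) and high fat (orange), and right, Cyp2c70 level against Cyp2c38 level with 1 point per strain. On the left the BXD61 chow array at 10.3 and 10.2 and the BXD98 high-fat array at 10.3 and 11.4 lie at the low end, and on the right DBA/2J lies at the upper left with 8.19 and 14.1.

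Outside the Cyp2c family, the genes whose diet-centred levels were most like each member over the 81 arrays were found by Pearson r. These values describe arrays that share strains, and carry no test. Cyp2c54 was closest to 2810007J24Rik (now Sult2a8, a sulfotransferase; r = 0.85), Cyp2d13 (r = 0.80) and Cyp1a2 (r = 0.78), and without BXD44, BXD61 and BXD63 these were 0.79, 0.72 and 0.66. Cyp2c37 shared all 3, with Cyp2d13 at 0.74, Cyp1a2 at 0.73 and 2810007J24Rik at 0.71, or 0.59, 0.57 and 0.57 without those strains. Cyp2c29 was closest to Cyp1a2 (0.74), the carboxylesterase Ces6 (now Ces2a; 0.71) and afamin, Afm (0.71), which were 0.53, 0.47 and 0.60 without those strains. Cyp2c50 was closest to the NADPH oxidase Nox4 (0.67), Cyp2d13 (0.66) and the sodium channel subunit Scnn1a (0.65), at 0.60, 0.48 and 0.54 without them. Thus Cyp1a2 and Cyp2d13 each ranked in the first 3 for 3 of the 4 genes that varied together, and part of each value rested on the 3 strains named.

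Cyp2c38 was most like Acss3 (r = 0.78), the myosin Myo1d (0.78) and, inversely, the oxysterol hydroxylase Cyp7b1 (-0.76), and without BXD44, BXD61 and BXD63 these stood at 0.78, 0.79 and -0.75. Cyp2c70 was most like Selenbp2 (0.74) and ran against the fatty aldehyde dehydrogenase Aldh3a2 (-0.73) and the carnitine acetyltransferase Crat (-0.72), at 0.73, -0.73 and -0.71 without those strains. The genes most like Cyp2c39 were Cpn1 (0.57), Plce1 (-0.50) and Tmem20 (now Slc35g1; -0.49), at 0.61, -0.54 and -0.49 without those strains. All 3 lie on chromosome 19 as the Cyp2c genes do. The share of all genes on that chromosome was not computed, and the part of position in these values was not tested. For Cyp2c55 they were the glutathione transferases Gstm3 (0.62) and Gstm6 (0.59) and Sqrdl (now Sqor; 0.57). Cyp2c65, below the negative-control median throughout, had no r beyond 0.46 (Rrn3).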

How the data were processed

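Per the labels' protocols, total RNA was extracted from each liver, pooled evenly within a strain and diet (about 5 animals), amplified and hybridised to Affymetrix whole-transcript arrays. Affymetrix Expression Console is the tool named in the submitters' processing notes, and its version and settings are not stated there. The authors deposited 1 score per probe set and array, and on every array these average 8 with an SD of 2. Such a standardisation ties every gene's score to the centre and spread of its array. limma was run on the scores as deposited. The 2 deposited tables differed in 0 cells, and 0 value columns lacked a sample. One column named BXD92 was taken as the strain BXD92a of the labels.

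Of 35556 probe sets 25096 carried 1 gene symbol, and the probe set of highest mean per symbol left 21765 genes. limma 3.58.1 (R 4.3.3) was fitted on all genes of the 78 paired arrays with diet and strain as terms. The pairing comes from the named inbred strain: deviations of a strain's 2 arrays from the diet means correlated with a median of 0.338 over strains, above 0.1 in 37 of 39. The strain share is the intraclass correlation of the 2 arrays of a strain. The number of arrays limits the precision. The Cyp2c genes, the gene lists and the tests were chosen with earlier results of these data known. Named genes were all Cyp2c genes, up to 4 genes of smallest p per list and up to 2 against its majority, and the 3 genes most like each member. Sequence identity was computed by global alignment (Biopython 1.88). Alternatives covered the strain block, scaling, probe set choice, a filter on dim genes, moderation and left-out strains or arrays. Each fit was first tested on simulated data.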

Additional observations from a re-analysis of the deposited data

How the results depend on the processing

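Diet differences of the 9 Cyp2c genes kept their direction under every alternative run: strain block, median centring, quantile normalization, probe set choice, filter, robust moderation and left-out strains. Without the replicate block of strain pairing, 4 members passed on the paired arrays and 4 on all arrays, in place of 7, since Cyp2c37, Cyp2c39 and Cyp2c54 were lost (limma, adjusted p = 0.116, 0.297 and 0.0664 on the paired arrays). Leaving out 1 strain at a time gave 5 to 8 members and 11449 to 12019 genes. Cyp2c37 was also lost under median centring, quantile normalization, robust moderation and without BXD65, BXD73, BXD80, BXD97 and BXD103 (limma, adjusted p = 0.0567, 0.0508, 0.0615 and 0.0786), and Cyp2c54 without those 5 strains (limma, adjusted p = 0.0536). Those 5 strains belong to sets of related strains, which the tests over strains treat as independent. The filter on the dimmest genes left 7280 genes passing, by testing fewer, and Cyp2c65 has no value under it. Median centring moved the median difference of all genes to 0.02. In the strain test Cyp2c37 did not pass under robust moderation (limma, adjusted p = 0.0770) or without the 5 strains (0.0736). Between the parents, leaving out 1 of the 4 arrays left 234 to 314 genes in place of 520, and Cyp2c38 the only member in each case (2.44 to 2.90 units). The spread test passed 1 gene under median centring, 1 without the 5 strains and 11 with deviations from the mean, in place of 2, and 0 members in each. Pairs of members that passed numbered 6 to 10, with 10 when arrays replaced strain means. Leaving out BXD44, BXD61 and BXD63 for these pairs was chosen after seeing the data. For the diet and strain tests the same strains were picked by their diet differences in these data. The causes were not tested. Levels near the negative-control median (Cyp2c55, Cyp2c65 and Cyp2c66) limit what their differences show. Some arrays of Cyp2c38, Cyp2c39 and Cyp2c68 lay under the 90th percentile of negative controls, which limits their differences in the same way.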

Other observations

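The strains with high Cyp2c39 were set beside the sides of the widest step of Cyp2c68 and of Cyp2c44 (now Cyp2c23), a comparison made after their values were seen and given without a test. All 13 strains above the step of Cyp2c39 were among the 17 strains below the widest step of Cyp2c68 (100% of the first list and 76.5% of the second), whose other strains were BXD61, BXD63, BXD70 and DBA/2J. The step of Cyp2c68 was small, 0.321 units or 11.5% of the range, and its 2 sides overlapped on both diets. For Cyp2c44, 11 of the 13 were among the 17 strains below its widest step (84.6% and 64.7%), the exceptions being BXD43 and BXD100. Its step was 1.11 units, 39.3% of the range, between BXD65 at 12.2 and BXD44 at 13.3, and 91.4% of the variance around the diet means lay between strains (limma F-test, adjusted p = 1.60e-17). DBA/2J was thus on the low side for Cyp2c68 and Cyp2c44 but below the step of Cyp2c39 as well.

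Some arrays were at the edge of their diet for several members. BXD61 on chow was among the 3 lowest chow arrays for 6 of the 9 genes (Cyp2c29, Cyp2c37, Cyp2c39, Cyp2c50, Cyp2c54 and Cyp2c55), and BXD44 on chow for 4. BXD81 on high fat was among the 3 lowest for 4 genes, and BXD98 and BXD95 on high fat for 3 each. BXD66 and BXD90 on high fat were among the 3 highest for Cyp2c37, Cyp2c50 and Cyp2c54. BXD43 on chow was among the 3 lowest for 3 genes. BXD66 and BXD68 on chow and BXD63 and BXD85 on high fat were among the 3 highest for 3 each, BXD63 also among the 3 lowest for 2. Cyp2c29, Cyp2c37, Cyp2c50 and Cyp2c54 varied together, so these counts are not of independent genes. Their share over all genes was not computed.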
